A study of Mus musculus with 12 samples.

Results

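The MHC class I presentation pathway was followed through 8 genes, H2-K1, H2-D1, B2m, Tap1, Tap2, Tapbp, Erap1 and Nlrc5, found in the files by their symbols, in ribosome profiling and RNA-seq of KPC cells treated with cisplatin (Cis). All 8 had reads in every library, and 15803 transcripts were listed in at least 1 of them. KPC cells are a mouse pancreatic ductal adenocarcinoma (PDAC) line from tumors of mice whose engineered alleles, Trp53 LSL-R172H among them, are switched on by Pdx1-Cre, whose Cre is driven by a pancreatic promoter. Every group carried these alleles and no genotype was compared. Cells received PBS, or 20 μM Cis for 6 or 21 h, and each assay had 2 libraries per group, 12 in all. The dose and the PBS come from the methods of the study, and the sample titles call the PBS libraries untreated. The labels give no duration for PBS. A single set of PBS libraries was the control for both time points, so the comparisons at 6 and 21 h are not independent. Without labelled durations, Cis exposure and time in culture cannot be told apart. Whether the 2 libraries of a group came from separate cultures is not labelled either, so p-values here measure the spread between these libraries, which may be technical.

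Class I molecules show peptides from inside the cell to CD8+ T cells. The proteasome cuts proteins into peptides, the TAP transporter carries them into the endoplasmic reticulum, aminopeptidases trim them, and a loading complex places them on a heavy chain paired with β2-microglobulin, which then travels to the cell surface. Many of these genes respond to interferon, NF-κB and the regulator NLRC5, and many tumors lower them and so become less visible to T cells.

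Levels are in RPKM, the reads on a transcript for its length and the depth of the library. The length was that of the coding sequence for footprints and of the whole transcript for RNA, and values were scaled by a factor per library except where deposited values are named. Footprint libraries held 3375480 to 5204127 reads and RNA libraries 1985344 to 2901692, of which 3 transcripts, Lars2, Tmem38b and Mettl26, took 51.8 to 56.6%, leaving 862476 to 1341584 for all other genes. Footprints over RNA give the translation efficiency (TE). For the label of a duct cell, 6 or 7 of 9 listed epithelial markers had over 3 reads in both footprint libraries of each group. The lowest were Epcam, Cldn4 and Muc1, with deposited means of 1.26, 0.153 and 0.639 RPKM of footprints with PBS. The summed footprint level of all 9 markers in deposited RPKM was 9113 to 9795 RPKM with PBS and 6728 to 6861 RPKM after 21 h. The markers did not all move together. By group means, Krt8, Krt19, Krt7 and Cdh1 were lower at 21 h than with PBS, while Krt18 and Sox9 were higher. The part of these markers in the results was not tested. Leukocyte markers summed to at most 10.4 RPKM of footprints in any library. Cd3e had no line in any library, and Itgam had 0 footprint reads in every group. The highest was Cd68, with a mean of 1.84 RPKM of footprints with PBS and 4.12 at 21 h. Class II markers summed to at most 11.0 RPKM of footprints, with Ciita listed at 0 with PBS and at 21 h. Fibroblast and endothelial markers summed to at most 4.18 and 0.666 RPKM. Cell number was not measured, so fewer cells and less RNA per cell cannot be told apart.

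The promoters of the members were searched for short motifs of the known control elements of class I genes. RefSeq promoter windows on GRCm38.p6, of 250 bases before the annotated start site and 50 after it, were found for 6 of the 8, namely H2-K1, H2-D1, B2m, Tap1, Tapbp and Erap1. The 4 motifs were searched on both strands with no mismatch allowed. The κB element was 4 G followed by ATTCCC, the cyclic AMP response element of the enhancer was TGACGC, the NF-Y box was CCAAT, and the interferon element was GAAA, any 2 bases and GAAA again. In the windows shown, 5′ to 3′ on the strand of the gene, capitals mark these 4 motifs on either strand, and no 2 of them overlap. H2-K1 lies at chr17:34000298-34000597 on the minus strand (1 of 2 overlapping windows), H2-D1 at chr17:35262844-35263143, B2m at chr2:122147437-122147736 and Erap1 at chr13:74639603-74639902, all 3 on the plus strand. They are shown because the 2 heavy chains moved in the same direction at 21 h, B2m is their partner and Erap1 was the member whose footprints fell.
H2-K1: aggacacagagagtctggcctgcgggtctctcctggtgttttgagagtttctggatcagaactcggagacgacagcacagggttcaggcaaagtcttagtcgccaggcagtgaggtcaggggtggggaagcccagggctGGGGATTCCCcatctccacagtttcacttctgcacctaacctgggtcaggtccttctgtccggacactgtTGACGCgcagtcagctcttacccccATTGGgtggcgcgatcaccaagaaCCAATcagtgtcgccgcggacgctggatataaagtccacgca
H2-D1: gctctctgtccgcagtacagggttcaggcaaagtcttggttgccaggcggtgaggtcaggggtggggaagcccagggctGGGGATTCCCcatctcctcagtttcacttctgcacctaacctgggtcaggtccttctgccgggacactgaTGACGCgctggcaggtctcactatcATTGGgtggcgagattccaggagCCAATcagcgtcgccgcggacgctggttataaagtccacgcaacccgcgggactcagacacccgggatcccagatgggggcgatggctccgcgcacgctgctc
B2m: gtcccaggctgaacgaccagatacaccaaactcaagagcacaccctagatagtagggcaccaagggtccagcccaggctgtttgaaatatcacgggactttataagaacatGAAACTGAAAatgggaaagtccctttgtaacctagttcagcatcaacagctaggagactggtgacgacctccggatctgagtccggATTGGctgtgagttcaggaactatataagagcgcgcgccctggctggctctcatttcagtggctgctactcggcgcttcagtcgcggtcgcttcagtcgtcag
Erap1: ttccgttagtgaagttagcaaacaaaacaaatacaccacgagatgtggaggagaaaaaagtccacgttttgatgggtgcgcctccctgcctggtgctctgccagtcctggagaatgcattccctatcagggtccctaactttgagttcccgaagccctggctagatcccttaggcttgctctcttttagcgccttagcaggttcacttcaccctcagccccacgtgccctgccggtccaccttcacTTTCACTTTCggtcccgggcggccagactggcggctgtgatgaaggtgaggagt

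The promoters of the 2 heavy chains were alike and those of the other genes differed from them. H2-K1 and H2-D1 held the κB element, TGACGC and 2 NF-Y boxes in the same order, with 70 bases from the start of the κB element to TGACGC in each, then 25 bases to the NF-Y box on the other strand, and 24 bases in H2-K1 and 23 in H2-D1 to the last box. The longest stretch they shared without a difference was 47 bases and held the κB element. B2m held the interferon element and 1 NF-Y box and shared at most 8 bases in a row with either heavy chain. Erap1 held the interferon element on the minus strand, beginning 4 bases before the annotated start site, and no NF-Y box. Tap1 had 1 NF-Y box and Tapbp 2. Among 32851 mouse promoter windows of this length, 0.107% held the κB element, 7.40% TGACGC, 3.44% the interferon element and 37.4% the NF-Y box. A match says only that these letters are in the window. A missing match does not say that an element is absent, since variants of the motifs were not searched.

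The members spanned the range of translation in KPC cells with PBS. B2m, the light chain shared by all class I molecules, had 8841 ± 378 RPKM of footprints with PBS (SD, n = 2) and was the 7th highest of 10383 transcripts kept (mean scaled RPKM of at least 1). The heavy chains came next. H2-D1 had 1045 ± 84.3 RPKM of footprints (rank 204) and H2-K1 had 574 ± 2.36 (rank 354). Tapasin (Tapbp), the chaperone that bridges TAP to the heavy chain, had 185 ± 2.72 RPKM (rank 1000). Tap1 had 37.5 ± 1.41 RPKM, Erap1, the aminopeptidase of the endoplasmic reticulum, 18.6 ± 1.01, and Tap2 15.9 ± 0.634. No neighbors in this order overlapped between libraries, and the closest were Erap1 at 17.9 and 19.3 RPKM and Tap2 at 15.4 and 16.3. Nlrc5, the transactivator of class I promoters, had 1.71 ± 0.161 RPKM, from 42 to 55 reads per library, and was rank 9914. In RNA the order was B2m (586 ± 14.7 RPKM), H2-D1 (192 ± 3.20), H2-K1 (152 ± 3.23), Tapbp (46.6 ± 8.44), Tap1 (9.89 ± 1.03), Tap2 (3.19 ± 0.340), Erap1 (2.91 ± 1.15) and Nlrc5 (2.49 ± 0.0491). The last 3 were not separated, since the Erap1 libraries at 2.09 and 3.72 RPKM lay on either side of Tap2 and Nlrc5.

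**Figure D1:**
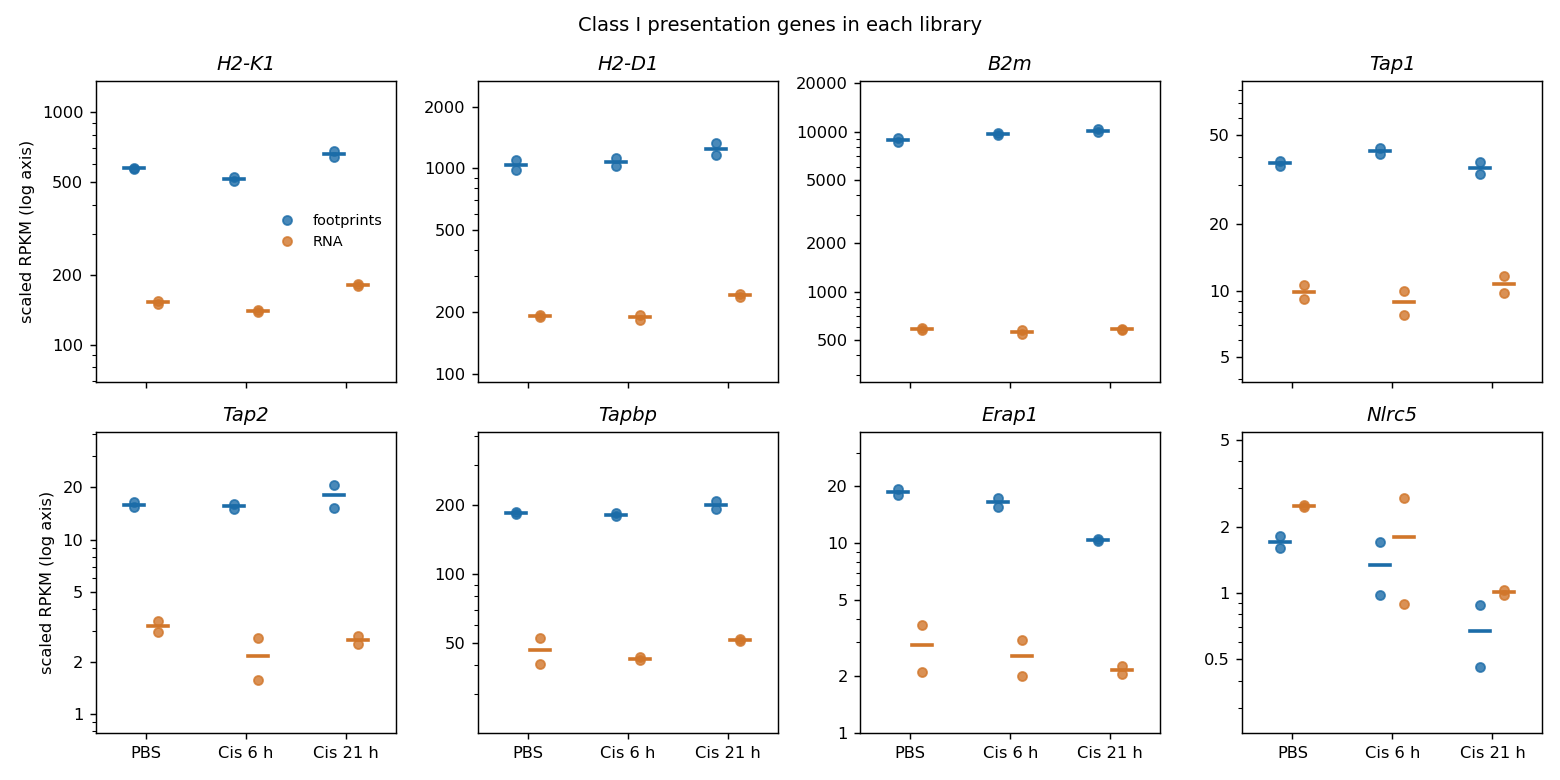
Scaled RPKM (log axis) of the 8 genes in each library by group, with footprints in blue and RNA in orange; points are libraries and bars the mean of 2. B2m reached 10350 RPKM of footprints at 21 h and Nlrc5 was as low as 0.462, and Erap1 footprints at 21 h lay at 10.3 and 10.5 RPKM, below all other Erap1 footprint libraries.

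H2-K1, a classical heavy chain, stood below PBS at 6 h and above it at 21 h in both assays. Its footprints were 573 and 576 RPKM with PBS, 526 and 507 at 6 h, and 642 and 682 at 21 h. Its RNA was 150 and 154 RPKM with PBS, 141 and 139 at 6 h, and 178 and 182 at 21 h. In each assay, both 6 h libraries lay below both PBS libraries and both 21 h libraries above all others. Here and below, a separation of groups is description only, since a permutation of 2 libraries against 2 cannot give a p under 0.333. The share of all transcripts with separated groups was not counted. At 21 h against PBS, RNA rose by 0.24 on the log2 scale (SE 0.076, 1.18-fold, limma adjusted p = 0.042). The footprint change was 0.20 (95% interval 0.036 to 0.373, 1.15-fold, limma adjusted p = 0.056), which did not pass. From 6 to 21 h, H2-K1 rose in both assays, with 0.36 for footprints (SE 0.074, limma adjusted p = 0.0080) and 0.37 for RNA (SE 0.076, adjusted p = 0.012). The lower level at 6 h did not pass in either assay (-0.15 for footprints, adjusted p = 0.27, and -0.12 for RNA, adjusted p = 0.56).

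The RNA call of H2-K1 at 21 h against PBS was lost under 10 of 15 other settings, among them each of the 6 fits with 1 RNA library left out (limma adjusted p = 0.057 to 0.197). The rise of its footprints from 6 to 21 h was lost without the second 6 h footprint library (0.33, limma adjusted p = 0.077), and that of its RNA without the second 6 h or the second 21 h library (adjusted p = 0.059 in each).

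H2-D1, the other classical heavy chain measured, also stood above PBS at 21 h, but not below it at 6 h. Its footprints were 1104 and 985 RPKM with PBS, 1130 and 1027 at 6 h, and 1161 and 1332 at 21 h. Its RNA was 195 and 190 RPKM with PBS, 183 and 193 at 6 h, and 236 and 246 at 21 h. Both 21 h libraries lay above all 4 others in each assay, and the 6 h libraries overlapped with PBS. RNA rose by 0.32 at 21 h against PBS (SE 0.074, 1.25-fold, limma adjusted p = 0.012) and by 0.36 from 6 to 21 h (SE 0.074, limma adjusted p = 0.013). The footprint change of 0.25 at 21 h against PBS (95% interval 0.031 to 0.477) had a limma adjusted p of 0.070. The RNA call at 21 h against PBS was lost without either PBS library or without the second 21 h library (limma adjusted p = 0.058 to 0.080). The call from 6 to 21 h was lost without the first 6 h library or the second 21 h library (adjusted p = 0.073 and 0.064).

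Heavy chains of the H2 complex are a family of near copies, and how the authors counted reads that match several of them is not stated. A read of H2-D1 or H2-K1 could therefore have been split, dropped or given to a relative, and the levels of single heavy chains are uncertain to that extent.

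B2m footprints stood higher after Cis while its RNA overlapped with PBS at both times. Footprints were 9108 and 8574 RPKM with PBS, 9554 and 9800 at 6 h, and 10350 and 9962 at 21 h. RNA was 596 and 575 RPKM with PBS, 579 and 547 at 6 h, and 585 and 576 at 21 h. The 3 footprint groups did not overlap, whereas the RNA groups did. The footprint change was 0.13 at 6 h (95% interval -0.037 to 0.299, limma adjusted p = 0.35) and 0.20 at 21 h (95% interval 0.032 to 0.368, limma adjusted p = 0.060), and neither passed. The RNA change at 21 h was -0.014 (95% interval -0.154 to 0.127), and 0.071 without scaling.

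The TAP subunits, which form the peptide pump as a pair, did not pass in any comparison. Tap1 footprints were 36.5 and 38.5 RPKM with PBS, 41.4 and 43.9 at 6 h, and 33.5 and 38.0 at 21 h. The 6 h libraries were the highest of the 6 and the 21 h libraries overlapped with PBS. Tap1 RNA ranged from 7.77 to 11.7 RPKM over 51 to 80 reads per library, and its groups overlapped. Tap2 footprints ranged from 15.0 to 20.6 RPKM, with the highest value in the second 21 h library and the other 21 h library at 15.3. Tap2 RNA rested on 12 to 30 reads per library and was 3.43 and 2.95 RPKM with PBS, 2.75 and 1.57 at 6 h, and 2.51 and 2.79 at 21 h. Both Cis groups of Tap2 RNA lay below PBS, by 0.51 at 6 h and 0.23 at 21 h on the log2 scale, with limma adjusted p values of 0.54 and 0.62. The 95% intervals of the 21 h changes, from -0.334 to 0.195 for Tap1 footprints and from -0.232 to 0.546 for Tap2 footprints, give the size of change that these libraries could not tell from 0.

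Tapbp did not pass either. Its footprints were 183 and 187 RPKM with PBS, 185 and 179 at 6 h, and 192 and 208 at 21 h, where both libraries lay above PBS. Its RNA was 40.6 and 52.6 RPKM with PBS, 43.3 and 42.4 at 6 h, and 52.3 and 51.3 at 21 h. The PBS libraries bracketed the RNA values of both Cis groups. The 21 h changes were 0.11 for footprints (95% interval -0.080 to 0.30) and 0.16 for RNA (95% interval -0.128 to 0.453), with limma adjusted p values of 0.32 and 0.40.

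Erap1, which trims peptides to the length that class I binds, was the member whose footprints fell. Its footprints were 17.9 and 19.3 RPKM with PBS, 15.6 and 17.3 at 6 h, and 10.3 and 10.5 at 21 h. The 3 groups were in falling order without overlap. At 21 h footprints were 0.571 times the PBS level (log2 change -0.81, SE 0.15, limma adjusted p = 0.0029), from 104 to 108 reads per library against 246 to 261. From 6 to 21 h they fell by 0.64 on the log2 scale (SE 0.15, limma adjusted p = 0.012), a call lost without the second 6 h library (adjusted p = 0.088). The fall against PBS passed in all 15 other settings (limma adjusted p up to 0.027). Erap1 RNA was 2.09 and 3.72 RPKM with PBS, 3.07 and 1.99 at 6 h, and 2.04 and 2.24 at 21 h, over 25 to 62 reads per library. The RNA groups overlapped, and the change at 21 h was -0.32 (95% interval -1.04 to 0.396, limma adjusted p = 0.51). The TE change of Erap1 was -0.48 (95% interval -1.25 to 0.279), and a change in Erap1 RNA was not detectable at this depth.

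Nlrc5 was near the lower limit of both assays. Its footprints were 1.83 and 1.60 RPKM with PBS, 1.70 and 0.976 at 6 h, and 0.462 and 0.882 at 21 h, and rested on 10 to 18 reads per library at 21 h. Its RNA was 2.53 and 2.46 RPKM with PBS, 2.70 and 0.890 at 6 h, and 0.979 and 1.04 at 21 h. Both 21 h libraries lay below both PBS libraries in each assay, and the 6 h libraries differed widely from each other. The 21 h change was -0.94 for footprints (SE 0.37, limma adjusted p = 0.078) and -0.99 for RNA (SE 0.40, limma adjusted p = 0.0998), which did not pass. In a fit of the recovered read counts with limma's voom, the changes were -1.40 (adjusted p = 0.0032) and -1.29 (adjusted p = 7.6e-04), and both passed.

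**Figure D2:**
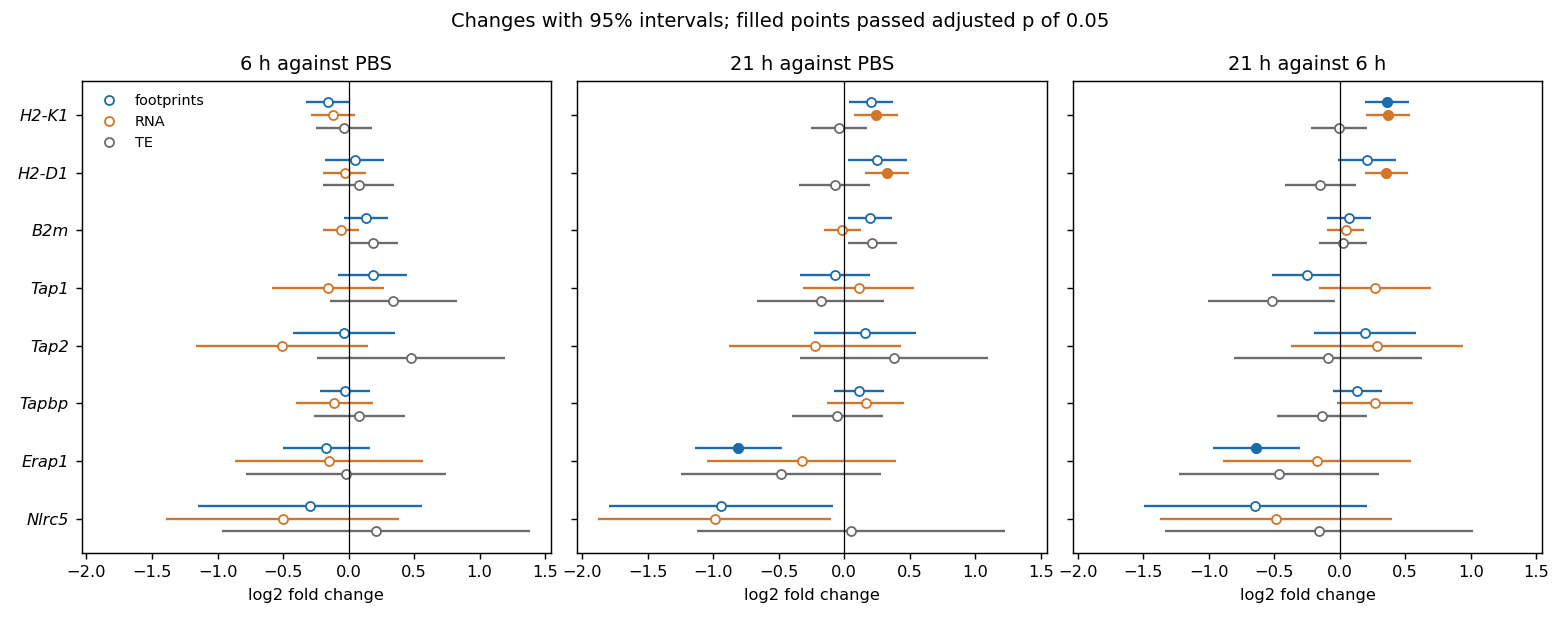
Log2 fold changes of the 8 genes in 3 comparisons, with 95% intervals from limma, for footprints (blue), RNA (orange) and TE (gray); filled points passed an adjusted p of 0.05. In the middle panel Erap1 footprints sit at -0.81, and H2-K1 and H2-D1 RNA at 0.24 and 0.32, while the widest intervals belong to Nlrc5.

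At 21 h 1 member passed in footprints and 2 in RNA by limma, and at 6 h 0. In footprints at 6 h, 2.04% of 10383 transcripts passed (1.05% higher, 0.992% lower), and 0 did without the second 6 h library. Of the members, 0 had an unadjusted p under 0.05 there, beside 2217 of all transcripts. In that comparison voom called 0 members and 531 higher and 721 lower transcripts. In RNA at 6 h no member passed, and 0% of 9443 transcripts did. An unadjusted p under 0.05 was reached by 0 members and 1086 transcripts, and voom called 0 members and 65 higher and 161 lower transcripts. At 21 h, footprints of 39.1% of transcripts passed (18.9% higher, 20.2% lower), beside 1 of 8 members, Erap1, which was lower. RNA of 23.8% of transcripts passed at 21 h (11.6% higher, 12.2% lower), beside 2 members, H2-K1 and H2-D1, both higher. From 6 to 21 h, 30.7% of transcripts passed in footprints (15.0% higher, 15.7% lower), with H2-K1 higher and Erap1 lower among the members. In RNA the share was 15.7% (7.53% higher, 8.21% lower), with H2-K1 and H2-D1 higher. With voom the number of members called in footprints at 21 h against PBS was 5, with H2-K1, H2-D1 and B2m higher (adjusted p = 0.033, 0.010 and 0.013) and Erap1 and Nlrc5 lower. Of all 10383 transcripts, voom called 2241 higher and 2417 lower in the same comparison. The median change of the members in footprints at 21 h was 0.13, beside 0.0063 for all transcripts tested, and in RNA 0.048 beside 0.017.

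The share of all footprints on the 8 genes was 0.516 and 0.561% with PBS, 0.569 and 0.573% at 6 h, and 0.627 and 0.639% at 21 h, most of it B2m. The groups did not overlap. In RNA the members took 0.282 and 0.287% of the reads outside the 3 abundant transcripts with PBS, 0.266 and 0.275% at 6 h, and 0.319 and 0.325% at 21 h.

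No member changed in TE by the test. TE calls were made for 0% of 9295 transcripts at 6 h, 0.409% at 21 h and 1.01% from 6 to 21 h, and for 0 of 8 members each time, also with voom. At 6 h voom called 5 transcripts higher and 9 lower. An unadjusted p under 0.05 was reached by 1 of 8 members in each comparison, beside 710 of all transcripts at 6 h, 1183 at 21 h and 1263 from 6 to 21 h. The members were B2m at 6 h (0.19, adjusted p = 0.65 by limma) and at 21 h (0.21, 95% interval 0.028 to 0.400, adjusted p = 0.33), and Tap1 from 6 to 21 h (-0.52, adjusted p = 0.33). The B2m ratio of footprints to RNA was 15.3 and 14.9 with PBS, 16.5 and 17.9 at 6 h, and 17.7 and 17.3 at 21 h, so both Cis groups lay above PBS. The Tap1 ratio was 3.43 and 4.19 with PBS, 4.15 and 5.65 at 6 h, and 3.43 and 3.25 at 21 h.

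The ratios themselves set the members apart. With PBS, B2m had 15.1 times as many footprints per kilobase as RNA, above 97.3% of 9292 transcripts, whose median was 3.49. Erap1 (6.39), H2-D1 (5.43) and Tap2 (4.97) were above this median, and Tapbp (3.97), Tap1 (3.79) and H2-K1 (3.77) close to it. Nlrc5 had 0.688 and was above 2.36% of transcripts. The 2 assays were divided by different lengths, so a ratio also depends on how much of a transcript is coding sequence, which was 357 of 860 bases for B2m and 5745 of 7578 for Nlrc5.

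**Figure D3:**
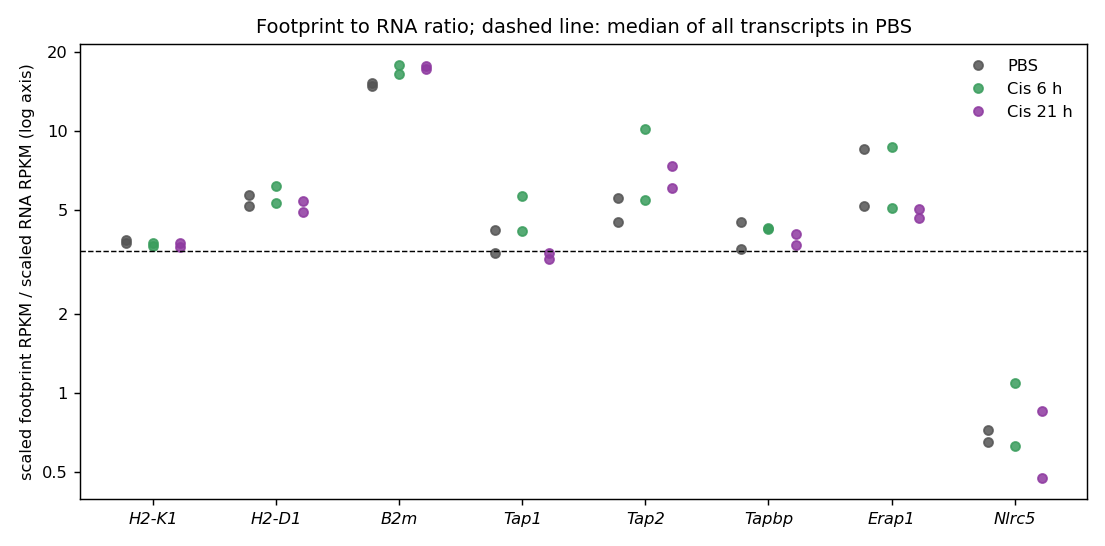
Ratio of scaled footprint RPKM to scaled RNA RPKM (log axis) of each gene in each pair of libraries with the same number, by group; the dashed line is the PBS median of all transcripts, 3.49. B2m lies between 14.9 and 17.9, above all other members, and Nlrc5 between 0.472 and 1.10.

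Subunits that work in fixed numbers were compared within each library, where scaling cancels. B2m pairs with every heavy chain, and its footprint level per coding kilobase was 5.43 and 5.49 times that of H2-K1 and H2-D1 together with PBS, 5.77 and 6.39 times at 6 h, and 5.74 and 4.95 times at 21 h. In RNA the ratio was 1.73 and 1.67 with PBS, 1.79 and 1.65 at 6 h, and 1.41 and 1.34 at 21 h. The 21 h ratios were the lowest in RNA, without overlap, whereas the footprint ratios at 21 h lay on either side of PBS. H2-D1 had 1.71 to 2.15 times the footprints of H2-K1 and 1.23 to 1.40 times its RNA. Tap1 and Tap2 join as a pair, and Tap1 had 2.37 and 2.36 times the footprints of Tap2 with PBS, 2.75 and 2.75 times at 6 h, and 2.20 and 1.84 times at 21 h. These 3 groups did not overlap. In RNA the ratio ran from 3.09 to 4.95 over the 6 libraries and rested on few Tap2 reads. No test was run on these ratios.

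**Figure D4:**
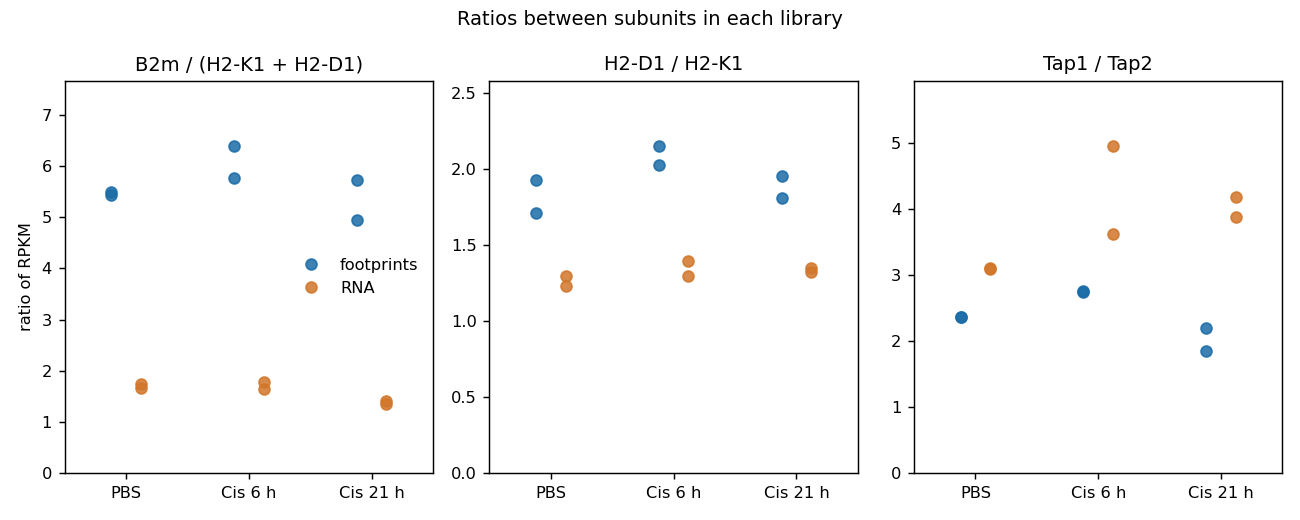
Ratios of RPKM between subunits in each library, by group, for footprints (blue) and RNA (orange), with axes from 0. The B2m ratio in RNA is 1.67 and 1.73 with PBS and 1.34 and 1.41 at 21 h, and the Tap1 to Tap2 footprint ratio is 2.75 in both 6 h libraries.

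Genes that control transcription of class I genes changed in both directions at 21 h. Of 14 genes tested of 15 listed, footprints of 7 were higher (Irf1, Rfxank, Nfya, Rela, Stat2, Irf9 and Ezh2) at 21 h against PBS. Footprints of 3 were lower (Nfkb1 and Irf2 among them), and the median was 0.43. Over all transcripts, 18.9% were higher and 20.2% lower, and the median was 0.0063. Irf1, an interferon-induced activator that binds the interferon element, had 55.7 and 63.6 RPKM of footprints with PBS, 66.0 and 66.9 at 6 h, and 108 and 108 at 21 h (log2 change 0.86, SE 0.10, limma adjusted p = 3.8e-04). The 21 h libraries of Irf1 lay clear of all others. Of the subunits of NF-κB, Rela rose by 0.70 and Nfkb1 fell by 1.08 on the log2 scale (limma adjusted p = 0.0027 and 9.2e-04). Of the RFX and NF-Y proteins that sit on class I promoters, Rfxank was higher by 0.81 and Nfya by 0.72 (limma adjusted p = 0.026 and 0.0014), and Rfx5, Nfyb, Nfyc and Creb1 did not pass. Irf2, a factor that binds the same element as Irf1, fell in footprints by 0.81 on the log2 scale (limma adjusted p = 9.3e-04). In RNA, Rela, Nfya, Irf9 and Ezh2 were higher and 1 gene of the list was lower, beside 11.6% and 12.2% of all transcripts. At 6 h, Nfya was higher and Irf2 lower in footprints, calls lost without the second 6 h library, and 0 of the 14 passed in RNA, where 1 had an unadjusted p under 0.05.

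Steps before and after transcription were followed in the same way. Beside the counts below, 18.9% of all transcripts passed as higher and 20.2% as lower in footprints at 21 h. In RNA these shares were 11.6% and 12.2%. Of 8 interferon receptors and kinases tested of 9 listed, 0 passed as higher in footprints at 21 h and 2 passed as lower. These were the interferon-γ receptor chain Ifngr1 (-0.66, limma adjusted p = 0.0010) and the kinase Jak1 (-0.58, adjusted p = 0.0032). The median of this list was -0.23, and in RNA 1 of the 8 passed, as lower. Of the 7 genes for immunoproteasome subunits and proteasome activators, 1 passed, the activator cap Psme4 (-0.43, limma adjusted p = 0.039), and Psmb8, Psmb9 and Psmb10 did not (0.30, 0.34 and -0.035). Among 13 genes of peptide loading and trimming of 14 listed, 7 passed as lower in footprints. They were the cytosolic peptidases Npepps (-0.80) and Blmh (-0.77), the endosomal aminopeptidase Lnpep (-0.74), and the glycoprotein folding genes Uggt1, Canx, Pdia3 and Calr. Tapbpl, a relative of tapasin that edits peptides, passed as higher (0.70, limma adjusted p = 0.048), with 9.87 and 8.24 RPKM with PBS and 14.3 and 15.6 at 21 h. The median of this list was -0.43. In RNA, Npepps, Blmh, Lnpep and the protease Sppl3 were lower and the chaperone Hspa5 was higher, while Calr, Canx, Pdia3 and Uggt1 did not pass.

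Calls among the other heavy chains went in both directions, as they did over all transcripts. Of 19 listed, 9 were kept in the footprint test at 21 h against PBS. H2-Q4 was higher (0.82, limma adjusted p = 0.0063), and H2-T24 and H2-M3 were lower (-1.41 and -0.63, adjusted p = 2.1e-04 and 0.0082). Over all transcripts, 18.9% were higher and 20.2% lower in that test. H2-Q4 footprints were 16.4 and 21.8 RPKM with PBS and 32.3 and 35.3 at 21 h, and those of H2-T24 were 21.7 and 22.7 with PBS and 8.05 and 8.01 at 21 h. H2-T23, the mouse counterpart of HLA-E, had fewer RNA reads at 21 h, with 34.6 and 37.5 RPKM against 18.2 and 22.6 (log2 change -0.81, limma adjusted p = 0.0029), and its footprints did not pass (-0.11, adjusted p = 0.42). H2-T10 RNA was higher (1.5, limma adjusted p = 0.033) but shares much of its sequence with H2-T22. That call rested on 4 to 8 RNA reads per library with PBS and 18 at 21 h, and H2-T10 footprints had 0 to 1 reads in those groups. The caution on near copies holds for these genes too.

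**Figure D5:**
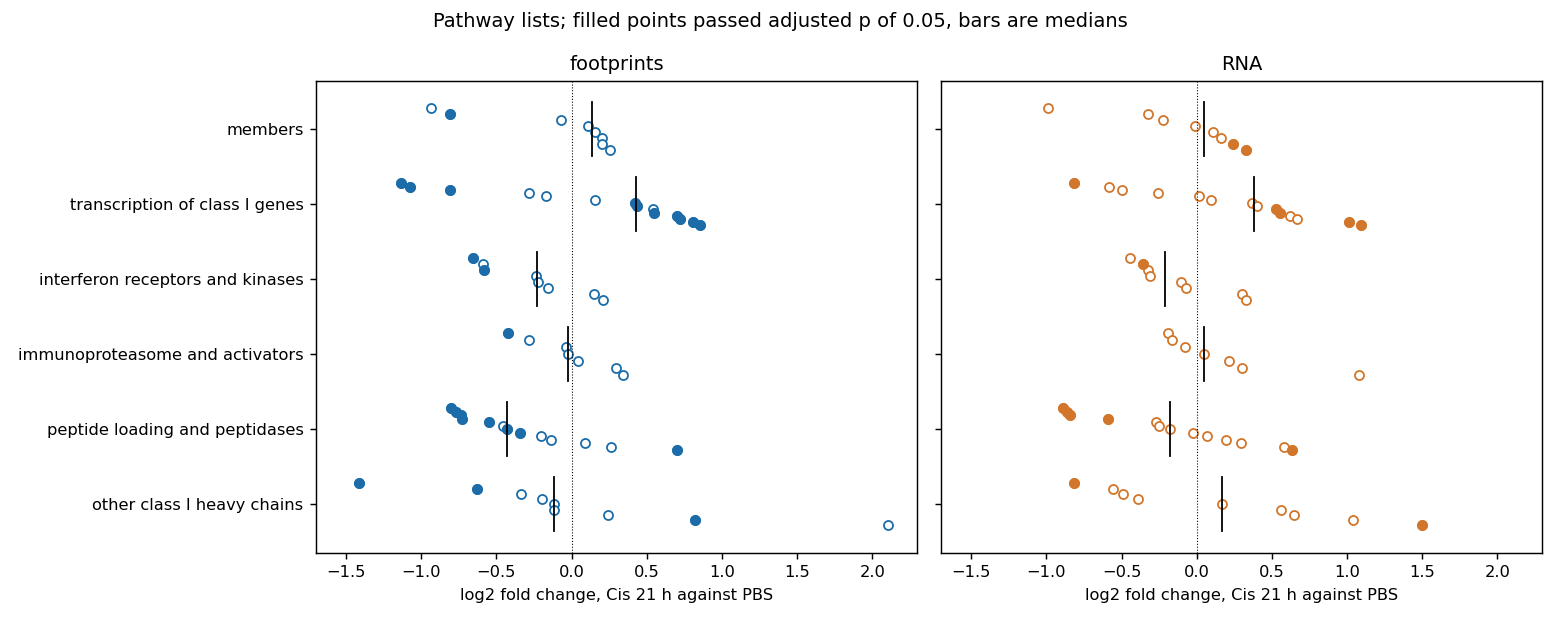
Log2 fold changes at 21 h against PBS of the 8 genes and of 5 lists of the pathway, in footprints (left) and RNA (right); each point is a gene, filled points passed an adjusted p of 0.05, and bars are medians. The footprint medians are 0.13 for the 8 genes, 0.43 for transcription and -0.43 for peptide loading and peptidases.

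The members differ in the length of their genes, and across all transcripts the median change at 21 h was lower in the classes of long genes. By RefSeq on GRCm38.p6, used for lengths only, H2-K1, H2-D1 and B2m span 4.61, 4.40 and 5.40 kb, Tap1, Tapbp and Tap2 9.67, 9.81 and 11.8 kb, Erap1 53.6 kb and Nlrc5 92.9 kb. H2-K1, H2-D1, Tap1, Tap2 and Tapbp lie on chromosome 17 in the H2 complex, B2m on chromosome 2, Erap1 on chromosome 13 and Nlrc5 on chromosome 8. Transcripts of genes under 5 kb had a median footprint change of 0.19 at 21 h (1211 transcripts), those of 5 to 10 kb 0.21 and those of 10 to 20 kb 0.22. Those of 50 to 100 kb had -0.33 (1513 transcripts) in footprints and -0.20 in RNA, and those above 100 kb -1.08 and -0.86. The footprint changes of H2-K1 (0.20), H2-D1 (0.25) and B2m (0.20) were close to the median of genes of their length, and those of Erap1 (-0.81) and Nlrc5 (-0.94) were lower than the median of theirs. In RNA, H2-K1 (0.24) and H2-D1 (0.32) lay above the median of genes under 5 kb, 0.078. B2m RNA (-0.014) lay below the median of genes of 5 to 10 kb, 0.18. Erap1 (-0.32) and Nlrc5 (-0.99) lay below the RNA median of their class. The part of gene length in these changes was not tested.

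Across the 12 libraries, centered within each assay, the profile of H2-K1 was closest to that of H2-D1 among the members (Pearson r = 0.84), and H2-D1 ranked 313 of 9294 transcripts by r. Those with the highest r to H2-K1 were Anln (0.98), S100a14 (0.98), Hsp90aa1 (0.97), Son (0.96) and H4f16 (0.96). H2-K1 followed Tapbp with r = 0.76 and ran against Erap1 with r = -0.53. B2m had r = 0.32 with H2-K1 and 0.42 with H2-D1, below Zfp871 (0.91), Uba3 (0.91), Nifk (0.89), Ube2t (0.87) and Klf16 (0.87). Erap1 and Nlrc5 had r = 0.73 with each other. These values describe 12 libraries in 3 groups that share depth and treatment, and carry no test.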

How the data were processed

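Ribosome profiling and RNA-seq were run on KPC cells with PBS or with Cis for 6 or 21 h. The authors deposited RPKM for 1 transcript per gene and library, with replicates not pooled. Submitters' processing notes name cutadapt, STAR and GRCm39, without versions, and treatment of multi-mapped reads is not given in the sources used here. A transcript with no line was set to 0. RPKM times length gave whole multiples of 1 read for all values (tolerance 0.01), which gave reads and depths. The 95% intervals are those of limma and rest on the spread between libraries.

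RPKM were divided by median-of-ratios factors within each assay. The filter kept transcripts whose mean over an assay was at least 1, and limma 3.58.1 (R 4.3.3) was run on log2(scaled RPKM + 0.5), with a trended prior and all 3 groups of an assay in a model. TE was the interaction of assay and group over 12 libraries. Fold changes are on the log2(RPKM + 0.5) scale, which understates changes of low genes. Tests were two-sided, adjusted by Benjamini-Hochberg over all transcripts kept, at 0.05. The named genes were the 8 members, up to 3 higher and 3 lower genes of each list in footprints at 21 h, and the 5 genes most like H2-K1 and like B2m. The other listed genes named were chosen after their values were seen. The members and lists were chosen with earlier results of these data known.

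On simulated data with genes changed 2-fold, limma called 71.2% of 198 such genes for footprints at 21 h against PBS (10387 genes). It called 43.7% of 199 for RNA (9374 genes) and 20.5% of 200 for TE (9293 genes). Every simulated gene had the same spread beyond sampling noise, and far fewer genes changed than were called in the real footprints at 21 h. These shares need not hold for the real libraries, and they do not cover changes smaller than 2-fold. Alternatives were pseudocounts of 0.1 and 1, no filter, a mean of at least 5, no scaling, no trend, only the groups compared, the replicate number as a block, voom on the recovered reads, and each library left out. Libraries of a group differed by more than sampling noise and were counted separately. Python 3.11.15 with pandas 2.3.3, numpy 2.4.6 and matplotlib 3.10.9 was used. Values of some listed genes and the full genotype of the line are not reported here.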

Additional observations from a re-analysis of the deposited data

Results flagged for a closer look

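Levels differed between 6 and 21 h of Cis for 4 results of the members, by limma's test of 21 h against 6 h. The shared PBS libraries cancel in that comparison, so Cis exposure and time in culture cannot be told apart in it. H2-K1 was higher at 21 h by 0.36 in footprints and by 0.37 in RNA, and H2-D1 by 0.36 in RNA, on the log2 scale. Erap1 footprints differed by -0.64. Each of the 4 had the same direction in every 21 h library against every 6 h library. They were chosen by a test on these libraries, so that adds no support. Each call was lost in some fit with 1 library left out. The causes of the 4 results were not tested. With 2 libraries per group, no group was large enough to test for an outlying library.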

How the results depend on the processing

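Members called by limma were counted again under each alternative. For footprints at 21 h against PBS, where 1 member was called, the count was 4 without scaling, 2 without the trend, 5 with voom and 1 to 2 with 1 library left out. For footprints at 21 h against 6 h the count of 2 became 1 without the trend and 0 to 2 with 1 library left out. For RNA at 21 h against PBS the count of 2 became 1 with no filter, 0 without the trend, 1 with the replicate block and 0 to 2 with 1 library left out. For RNA at 21 h against 6 h it became 0 without the trend and 0 to 2 with 1 library left out. The other counts of members kept within 1.5 times of the main count. Without scaling, the median change of all transcripts moved to 0.15 for RNA and -0.16 for TE at 21 h against 6 h, and the share of higher genes among those called went from 48.7 to 58.6% for RNA at 21 h against PBS and from 47.8 to 70.6% at 21 h against 6 h. Over all transcripts, the number called for footprints was 212 at 6 h, from 0 without the trend or without the second 6 h library to 1252 with voom (37 with the block), and 3189 at 21 h against 6 h, with 1601 without the second 6 h library. For RNA it was 0 at 6 h (226 with voom), 2245 at 21 h, with 1058 without the first PBS library, and 1486 at 21 h against 6 h, with 684 without the second 21 h library. For TE it was 0 at 6 h (14 with voom), 38 at 21 h, from 0 without the trend to 155 with voom (16 with the block), and 94 at 21 h against 6 h, from 4 without the trend to 172 with voom (25 with the block). For footprints at 21 h every alternative stayed within 1.5 times of 4061. Replicate numbers did not pair the libraries, whose deviations correlated at -0.014 to 0.021, and the block changed no other count of members.

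A change of direction, in values that limma did not call, was seen with voom for Tapbp footprints at 6 h (6.8e-04), Erap1 TE at 6 h (0.057) and Nlrc5 TE at 21 h (-0.11, and -0.058 with a pseudocount of 0.1), and without scaling for B2m RNA at 21 h (0.071), H2-K1 TE at 6 h (0.050), Erap1 TE at 6 h (0.051) and B2m TE at 21 h against 6 h (-0.11). With 1 library left out, values of both signs were seen for the following results, none of them called, with their lowest and highest log2 change. In footprints at 6 h against PBS, these were H2-D1 (-0.040 to 0.12) and Tap2 (-0.079 to 0.012). In footprints at 21 h against PBS, these were Tap1 (-0.15 to 0.027) and Tap2 (-0.044 to 0.37). In footprints at 21 h against 6 h, these were Tap2 (-0.020 to 0.40). In RNA at 6 h against PBS, these were Erap1 (-0.50 to 0.20), H2-D1 (-0.071 to 0.0081), Nlrc5 (-1.11 to 0.098), Tap1 (-0.33 to 0.012) and Tapbp (-0.30 to 0.071). In RNA at 21 h against PBS, these were B2m (-0.043 to 0.0068), Erap1 (-0.68 to 0.024), Tap1 (-0.012 to 0.23) and Tapbp (-0.026 to 0.34). In RNA at 21 h against 6 h, these were Erap1 (-0.44 to 0.082), Nlrc5 (-1.09 to 0.12) and Tap2 (-0.046 to 0.61). In TE at 6 h against PBS, these were Erap1 (-0.37 to 0.33), H2-D1 (-0.0096 to 0.15), Nlrc5 (-0.39 to 0.81) and Tapbp (-0.096 to 0.27). In TE at 21 h against PBS, these were H2-D1 (-0.16 to 0.036), H2-K1 (-0.073 to 0.011), Nlrc5 (-0.20 to 0.32) and Tapbp (-0.23 to 0.14). In TE at 21 h against 6 h, these were B2m (-0.014 to 0.069), H2-K1 (-0.049 to 0.035), Nlrc5 (-0.76 to 0.45) and Tap2 (-0.42 to 0.24). A lone library left in a group was assumed to vary like the other groups. Under the filter of 5, Nlrc5 in both assays and Erap1 and Tap2 in RNA gave no value. The causes of these differences were not tested. Tap2, Erap1 and Nlrc5 RNA, with 12 to 62 reads per library, limit what can be said of their RNA and TE.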
